A study of Mus musculus with 32 samples.

Results

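The p53 gliomas are brain tumours of mice with the genotype hGFAP-cre;p53flox/flox, in which Cre recombinase, driven by the human GFAP promoter, deletes both floxed copies of the tumour suppressor gene Trp53. They were compared with normal forebrain, across every probe set of the array and not for a chosen set of genes. The members were taken from the deposited table by their column titles, which gave 9 p53 gliomas and 4 forebrains of the set called Z2, 13 of the 32 arrays in the series. The labels call the tumours malignant gliomas, and the extraction protocol speaks of high-grade gliomas and of wild-type control tissue. A second comparison used 4 gliomas of the same set with the genotype hGFAP-cre;p53flox/flox;Nf1KO/+, here called p53 Nf1KO gliomas, which carry the same Cre and floxed alleles and, in addition, 1 germline mutant copy of Nf1. The rest of the series comprised gliomas with a cis p53/Nf1 mutation, Z2 cerebellum and a separate set Z1, and its title names Rictor, which belongs to mTOR complex 2. The age of the mice, the part of each tumour that was sampled, whether arrays of a group came from separate animals, and the meaning of Z1 and Z2 are not stated in the labels, so p-values measure the spread between arrays, which may be partly technical.

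The human GFAP promoter is active in radial glia and neural stem cells as well as in astrocytes, so its Cre reaches the precursors of neurons, astrocytes and oligodendrocytes. The p53 protein is a transcription factor that responds to DNA damage and oncogenic stress. It activates genes that halt the cell cycle or start apoptosis, and loss of its function is among the most frequent events in high-grade glioma. Gliomas of this kind commonly hold dividing cells with features of oligodendrocyte progenitors, many macrophages and microglia, and abnormal vessels, in place of the neurons of the surrounding tissue.

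Expression is given as the deposited log2 value, and a log2 difference is the mean of p53 gliomas minus the mean of forebrains, with its standard error (SE). A gene was called when its adjusted p in limma, a linear model fitted to all genes with a moderated spread, was under 0.05. Array medians were similar, 6.91 to 7.06 in p53 gliomas and 6.90 to 6.95 in forebrains. The typical difference between 2 arrays of a group (median root mean square over genes) was 0.775 in p53 gliomas and 0.506 in forebrains. The array of p53 glioma 1 lay closer to normal tissue than to the other tumours. It differed from the forebrains by 0.511 and from p53 gliomas 2 to 9 by 1.02. Results are therefore given with this array, and again without it.

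Trp53 and Nf1, the genes mutated in gliomas of the series, were examined first, with Rictor, which the title names but no group label does. Trp53 ranged from 5.0 to 6.32 (median 5.80) in the 9 p53 gliomas, with the lowest value in glioma 1, against 5.70, 6.52, 6.20 and 5.87 in the 4 forebrains. The groups overlapped, and the log2 difference of −0.29 ± 0.19 (SE) did not pass the test (limma adjusted p = 0.242, and 0.395 with a difference of −0.19 without glioma 1). Where the Trp53 probes lie relative to the deleted exons is not stated in the labels, so this value does not check the deletion. Nf1, the gene of neurofibromin, which switches RAS off, ranged from 5.92 to 6.83 (median 6.33) in p53 gliomas, against 6.19, 6.19, 6.18 and 6.20 in forebrains, and did not pass (log2 difference 0.13, limma adjusted p = 0.521). Rictor ranged from 6.0 to 6.54 (median 6.25) in p53 gliomas, against 6.53, 6.44, 6.22 and 6.08 in forebrains, and did not pass either (log2 difference −0.04, limma adjusted p = 0.856). All 3 genes had overlapping groups.

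Against forebrain, 6618 of 17297 genes were called (38.3%), of which 3056 were higher (17.7%) and 3562 lower (20.6%) in p53 gliomas, and 2873 of them differed at least 2-fold, 1461 higher (8.45%) and 1412 lower (8.16%). Without glioma 1 the count was 7599 (43.9%), with 3528 higher (20.4%) and 4071 lower (23.5%). Of these calls 6595 were shared in the same direction, 23 were made only with glioma 1 and 1004 only without it, and none was opposite. In 899 genes all 9 gliomas lay above all 4 forebrains (5.2%), and in 794 all lay below (4.59%). For gliomas 2 to 9 the corresponding counts were 2316 (13.4%) and 2505 (14.5%). The median log2 difference over all genes was −0.04.

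Among called genes in which gliomas 2 to 9 did not overlap the forebrains, the 12 largest increases came from the spermatid gene Prm1, 9 genes of mitosis or DNA replication and the interferon-response genes Cxcl10 and Usp18. Prm1 encodes protamine 1, which packs DNA in sperm. What its probes measure in these tumours is not stated in the labels, so the values are those of the probe set. It ranged from 9.98 to 11.36 (median 11.04) in p53 gliomas, against 1.13, 1.75, 0.99 and 1.26 in forebrains, a log2 difference of 9.66 ± 0.62 (limma adjusted p = 3.91e-11). These forebrain values were the lowest of any probe set on their arrays, while the spermatid gene Prm2 averaged 3.98 in forebrains. The size of the Prm1 difference thus rests partly on values at the floor. Every glioma, glioma 1 included, lay far above every forebrain, and p53 Nf1KO gliomas were also high at 10.79 ± 0.23 (SD, n = 4), while cerebellum was low at 1.55 ± 0.25 (SD, n = 3). The other spermatid genes did not follow: of 17 measured, only Prm1 and Tssk1, a testis-specific kinase, were called higher and only Hspa1l lower, and the Tssk1 log2 difference was 0.32, a call lost when only the 13 arrays of the pair were fitted or without forebrain 3. Ccnb1, the cyclin that drives entry into mitosis, ranged from 6.21 in glioma 1 to 11.09 (median 10.61), against 3.43, 4.51, 3.57 and 4.09 in forebrains. Its log2 difference was 6.05 ± 0.58 (limma adjusted p = 1.12e-07), or 6.52 without glioma 1. The groups did not overlap.

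Pbk, a mitotic kinase, Pclaf, a PCNA-binding protein, Esco2, a cohesin acetyltransferase, and Cdca3, which promotes mitotic entry, had log2 differences of 5.70, 5.54, 5.49 and 5.44. A second probe set of Pclaf, not the one used, had a log2 difference of −0.37 and was not called. Cdk1, the kinase partner of cyclin B, ranged from 6.70 in glioma 1 to 11.50 (median 11.16) in p53 gliomas, against 4.86, 5.52, 4.83 and 5.03 in forebrains. The other gliomas all read 10.09 or more, so that glioma 1 stood between the forebrains and the rest.

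The 12 largest decreases without such overlap were smaller, with log2 differences of −2.78 to −3.09, and included genes of neurons. Some genes with overlap fell further, such as Ttr, the thyroxine carrier, at −4.73 ± 1.42 (limma adjusted p = 0.0103). Gabra5, a GABA-A receptor subunit, ranged from 3.81 to 10.41 (median 7.46) in p53 gliomas, against 10.05, 10.17, 10.14 and 10.42 in forebrains. Its highest value was that of glioma 1, which fell among the forebrains, while gliomas 2 to 9 all lay below them. Its log2 difference was −2.86 ± 0.77 (limma adjusted p = 0.00492), or −3.25 without glioma 1. Camkv, a calmodulin-binding vesicle-associated protein, Unc13c, a vesicle priming factor, Pcsk1, a prohormone convertase, and the cadherins Cdh8 and Cdh9 had log2 differences of −2.82, −2.80, −2.79, −2.80 and −2.78. Pcsk1 did not overlap: the highest glioma read 5.82 and the lowest forebrain 6.78. The remaining 6 were Gpr12, an orphan receptor, Slc27a2, a fatty acyl-CoA synthetase, Fn3k, fructosamine 3 kinase, Gkn3, Lemd1 and Cpne4, and the Cpne4 call was lost when only the 13 arrays of the pair were fitted.

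**Figure D1:**
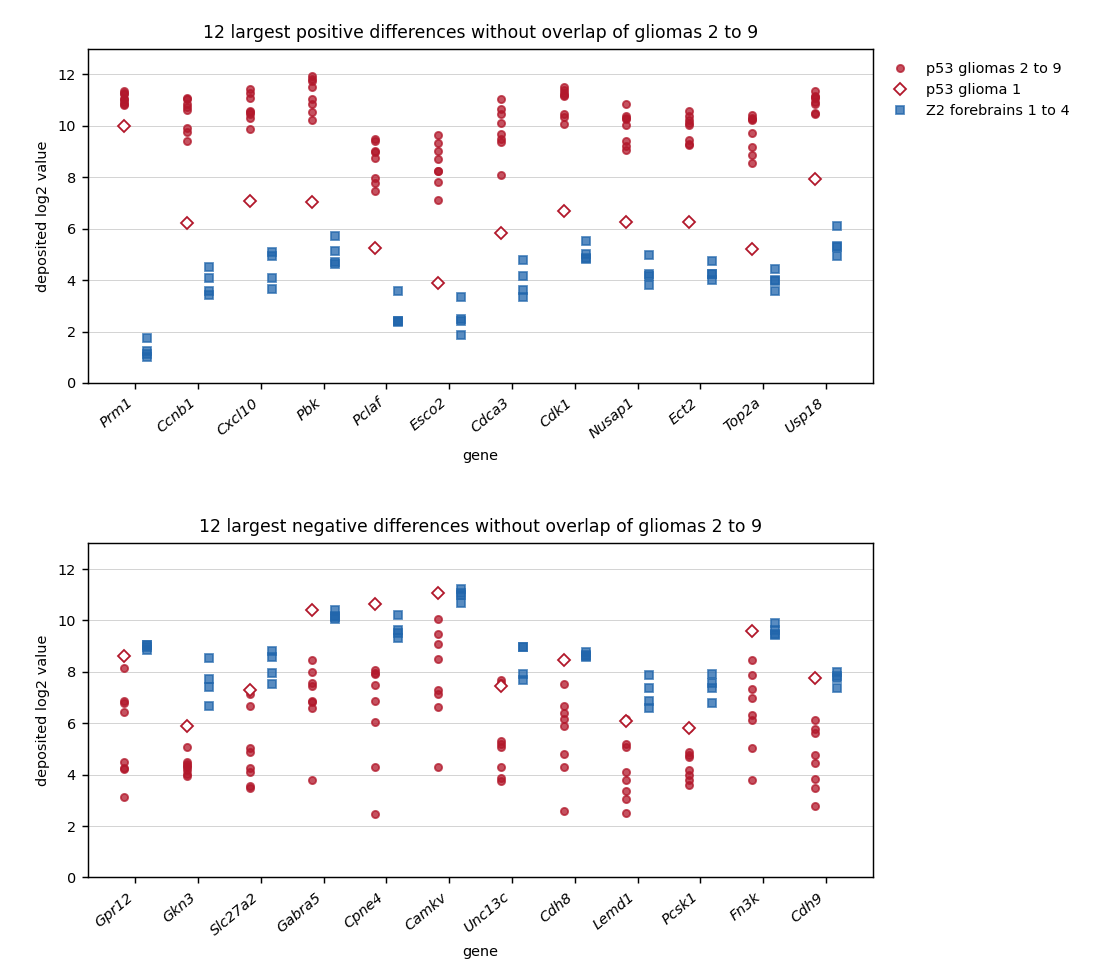
Deposited log2 value (vertical axis) of the 12 most increased (top) and the 12 most decreased genes (bottom) among called genes in which gliomas 2 to 9 do not overlap the forebrains, 1 point per array. Filled circles are p53 gliomas 2 to 9, the open diamond is p53 glioma 1 and squares are the 4 Z2 forebrains. Glioma 1 lies between the other gliomas and the forebrains for most genes of the upper panel and among or near the forebrains for most genes of the lower one. Levels of different genes are not comparable.

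The genes were then read through 54 lists for pathways and cell types, and the plot of called members by list shows how far each list departs from the 17.7% called higher and 20.6% called lower among all genes. The 5 highest shares called higher were those of replication, the interferon response, the kinetochore list, oligodendrocyte progenitors and mitotic entry. Lists of synapses, ion channels and axons held the highest shares called lower. Both shares lay under those of all genes for astrocyte, immediate early, hypoxia and glycolysis, sterol synthesis and mTOR and PI3K-AKT genes. The same held for T and NK cell, B and plasma cell, pericyte and smooth muscle, erythrocyte and spermatid genes.

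**Figure D2:**
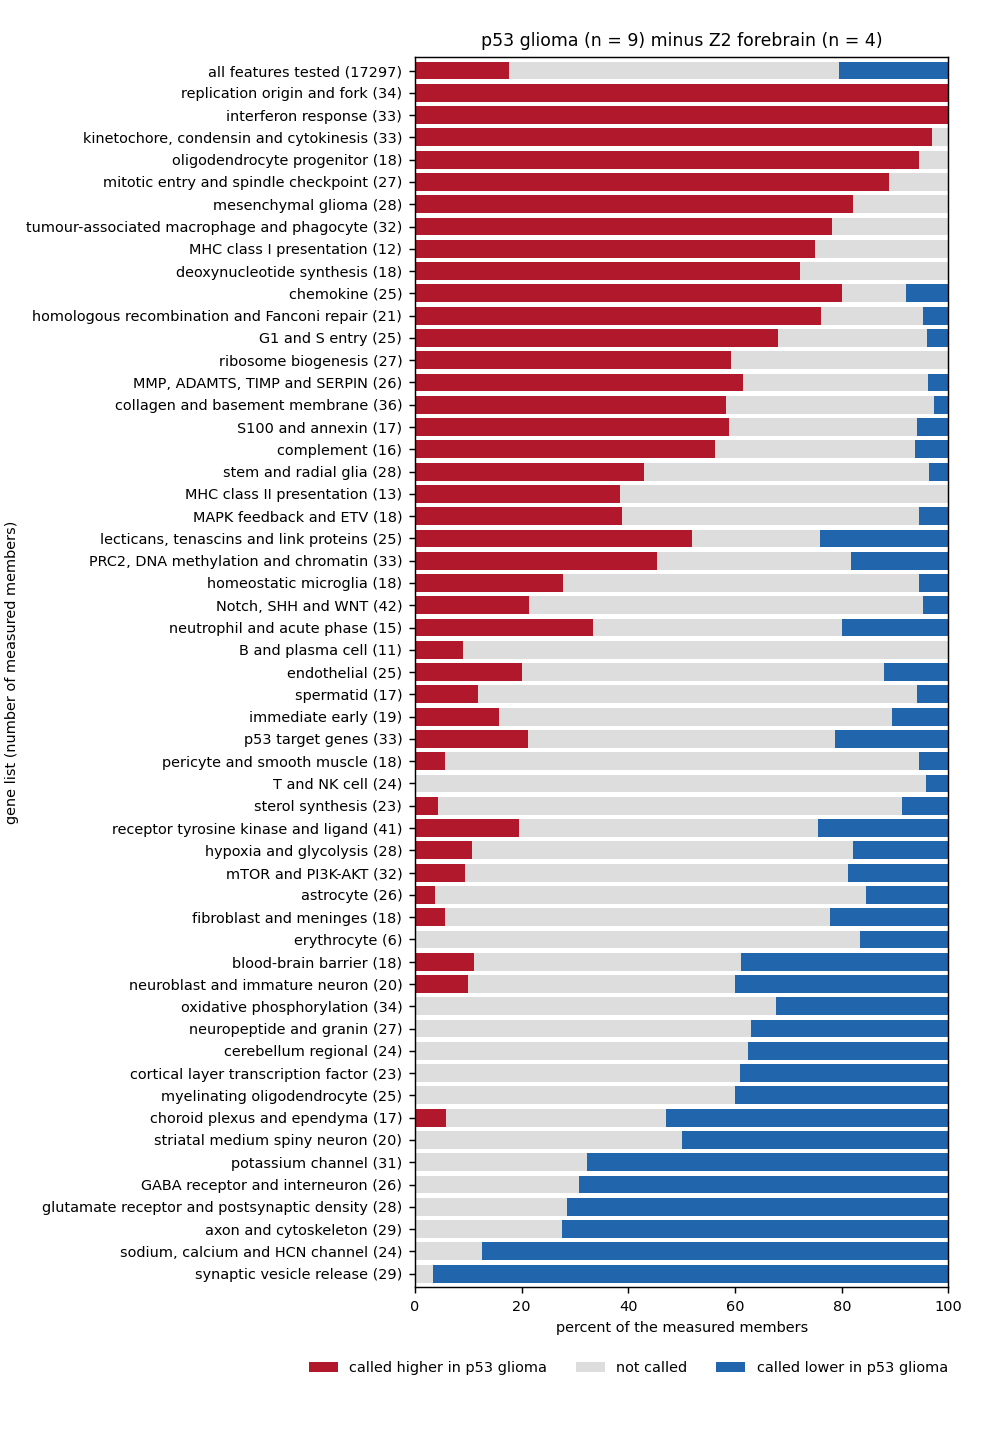
Percent of the measured members of each of 54 gene lists (horizontal axis) called higher (dark red), not called (grey) or called lower (blue) in p53 gliomas (n = 9) relative to Z2 forebrain (n = 4), with all 17297 features in the top row and the number of measured members beside each list. All 34 replication genes and all 33 interferon-response genes were called higher, and 28 of 29 synaptic vesicle genes were called lower.

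Genes of cell division were higher in p53 gliomas from the G1 phase to cytokinesis. Of 25 genes of G1 and S entry, 17 were higher and 1 lower (median log2 difference 1.40). All 34 genes of the replication origin and fork were higher (median 1.97), as were 13 of 18 genes of deoxynucleotide synthesis (median 0.66). For mitotic entry and the spindle checkpoint the count was 24 of 27 (median 3.13), and for the kinetochore, condensin and cytokinesis 32 of 33 (median 3.31). None of these 4 lists held a gene called lower. The 4 mitotic genes that were not called were Bub3, Fzr1, Pttg1 and Anln.

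Ccnd1 encodes cyclin D1, which starts the G1 phase together with CDK4 and CDK6. It ranged from 9.76 in glioma 1 to 12.14 (median 11.77) in p53 gliomas, against 8.47, 8.26, 8.02 and 8.33 in forebrains. No glioma overlapped a forebrain, and the log2 difference was 3.18 ± 0.29 (limma adjusted p = 7.38e-08), or 3.40 without glioma 1. Cdkn2a, the locus of the INK4A and ARF tumour suppressors, ranged from 4.29 in glioma 1 to 9.18 (median 8.28), against 3.03, 3.14, 2.98 and 3.04 in forebrains, with a log2 difference of 4.91 ± 0.59 (limma adjusted p = 1.9e-06). E2f7, an E2F-family repressor, and the oncogene Myc had log2 differences of 4.74 and 3.14. The gene called lower was Cdkn2d, another CDK inhibitor, with a log2 difference of −0.52 ± 0.15 (limma adjusted p = 0.00749).

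Pole, the catalytic subunit of DNA polymerase epsilon, ranged from 4.76 in glioma 1 to 8.64 (median 8.47) in p53 gliomas, against 3.54, 4.42, 3.60 and 4.16 in forebrains, a log2 difference of 3.77 ± 0.48. Cdt1 and Mcm10, which load and fire replication origins, had log2 differences of 3.15 and 2.47, and Tipin, a fork protection factor, 1.26. Among the enzymes that make DNA precursors, thymidine kinase Tk1 had a log2 difference of 4.71, and the ribonucleotide reductase subunits Rrm2 and Rrm1 had 3.53 and 1.79. All 9 gliomas lay above all 4 forebrains for each of these 7 genes. Glioma 1 had the lowest value of all gliomas in every one of them.

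Repair genes of homologous recombination and the Fanconi pathway were mostly higher, with 16 of 21 called higher and 1 lower (median log2 difference 1.05). The checkpoint kinase Chek1 ranged from 4.39 in glioma 1 to 7.71 (median 7.02), against 3.92, 4.11, 3.89 and 3.92 in forebrains, a log2 difference of 2.62 ± 0.39 (limma adjusted p = 2.31e-05). Ung, the uracil DNA glycosylase, and Brca2, a recombination mediator, had log2 differences of 1.96 and 1.42, with no overlap between groups. The gene called lower, Xrcc3, was at −0.66 ± 0.26 (limma adjusted p = 0.0411), a call lost when only the 20 Z2 arrays were fitted and without any one of several arrays.

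The promoters of 3 mitotic genes are shown because their genes are among those with the largest differences and their windows hold both motifs that were searched. Each window runs from 250 bases before to 50 after the annotated transcription start, 300 bases in all, read 5′ to 3′ on the gene's strand and taken from RefSeq sequence of assembly GRCm38.p6. Capitals mark every TTTGAA or TTCGAA, the cell cycle homology motif, and every CCAAT box, searched on both strands, so that ATTGG marks a CCAAT box on the other strand. Ect2, a guanine nucleotide exchange factor of cytokinesis, lies on the minus strand at chr3:27153829-27154128. Spc25, a subunit of the NDC80 kinetochore complex, lies on the minus strand at chr2:69206164-69206463, and Cdk1 on the minus strand at chr10:69352863-69353162.
Ect2: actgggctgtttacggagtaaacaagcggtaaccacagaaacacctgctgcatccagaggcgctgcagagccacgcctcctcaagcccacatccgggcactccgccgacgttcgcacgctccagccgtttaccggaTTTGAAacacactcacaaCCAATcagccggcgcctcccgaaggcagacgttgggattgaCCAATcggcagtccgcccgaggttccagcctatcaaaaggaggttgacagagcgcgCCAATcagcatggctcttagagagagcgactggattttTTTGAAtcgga
Spc25: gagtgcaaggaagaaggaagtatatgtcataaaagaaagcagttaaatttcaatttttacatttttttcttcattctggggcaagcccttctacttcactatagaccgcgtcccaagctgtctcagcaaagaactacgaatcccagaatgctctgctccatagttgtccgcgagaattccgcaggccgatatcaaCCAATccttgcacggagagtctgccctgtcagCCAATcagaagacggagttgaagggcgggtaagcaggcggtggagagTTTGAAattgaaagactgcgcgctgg
Cdk1: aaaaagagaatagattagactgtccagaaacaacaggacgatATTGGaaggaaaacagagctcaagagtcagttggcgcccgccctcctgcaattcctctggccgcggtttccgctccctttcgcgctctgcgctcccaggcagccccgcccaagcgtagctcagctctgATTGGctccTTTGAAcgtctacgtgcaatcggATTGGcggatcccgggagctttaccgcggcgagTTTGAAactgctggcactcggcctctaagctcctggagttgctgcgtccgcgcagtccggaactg

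Of the called members of both mitotic lists, 46 genes matched 50 such windows. The cell cycle homology motif was in 35 windows (70.0%), against 19.2% of all 32851 windows in the table. The CCAAT box was in 39 (78.0%), against 37.4% of all windows. Spc25 itself ranged from 6.68 in glioma 1 to 11.15 (median 10.61) in p53 gliomas, against 4.76, 5.34, 4.68 and 5.21 in forebrains, and Ect2 from 6.26 in glioma 1 to 10.57 (median 10.04), against 4.23, 4.73, 4.24 and 4.01. Both had no overlap between groups, with log2 differences of 5.01 ± 0.53 and 5.21 ± 0.52. Top2a, topoisomerase II alpha, and Nusap1, a spindle microtubule protein, had log2 differences of 5.21 and 5.23.

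The p53 target list held genes that p53 is known to activate and Trp53 itself, which was not called. Of its 33 genes, 7 were higher and 7 lower, shares near the 17.7% and 20.6% of all genes. The median log2 difference of 0.02 became −0.04 when arrays were centred on their medians. Without glioma 1 the counts were 7 and 9. Cdkn1a, the p21 inhibitor through which p53 halts the cell cycle, ranged from 8.25 to 10.20 (median 9.03) in p53 gliomas, against 7.57, 7.96, 7.28 and 8.37 in forebrains. The groups overlapped slightly at the forebrain maximum, and the log2 difference of 1.44 ± 0.38 passed the test (limma adjusted p = 0.00457). Gtse1, which is also a mitotic gene, Gadd45a, a stress-response gene, and Fas, a death receptor, had log2 differences of 1.99, 1.17 and 1.14. On the other side, Rrm2b, the p53-inducible ribonucleotide reductase subunit, ranged from 6.20 to 8.08 (median 6.92), against 8.04, 8.08, 7.88 and 7.87, a log2 difference of −1.04 ± 0.21 (limma adjusted p = 0.000543). Its highest glioma was glioma 1, and gliomas 2 to 9 all lay below the forebrains. Aen, an apoptosis-enhancing nuclease, and Ccng1, cyclin G1, had log2 differences of −0.70 and −0.50.

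Of 18 oligodendrocyte progenitor genes, 17 were higher and none lower (median log2 difference 2.07). Olig2, a transcription factor of the oligodendrocyte lineage, ranged from 8.93 in glioma 1 to 11.64 (median 11.27) in p53 gliomas, against 8.65, 8.22, 8.92 and 8.39 in forebrains, a log2 difference of 2.34 ± 0.38 (limma adjusted p = 5.55e-05). Glioma 1 was level with the highest forebrain and the other 8 gliomas read 10.35 or more. Nkx2-2, another lineage factor, the proteoglycan Vcan and the receptor phosphatase Ptprz1 had log2 differences of 2.42, 3.54 and 1.29. Pdgfra, the PDGF receptor of these progenitors and of fibroblasts, ranged from 7.61 in glioma 1 to 10.76 (median 9.86), against 7.61, 7.29, 7.18 and 7.30, with a log2 difference of 2.29 ± 0.49 (limma adjusted p = 0.000829). Cspg4, the NG2 proteoglycan of progenitors and pericytes, had 2.67.

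Of 25 genes of mature oligodendrocytes none was higher and 10 were lower (median log2 difference −0.62). Ermn, a late myelin protein, ranged from 5.15 to 9.04 (median 6.95) in p53 gliomas, against 9.80, 9.29, 10.45 and 9.53 in forebrains, a log2 difference of −2.55 ± 0.59 (limma adjusted p = 0.00157). Gpr37, a receptor of maturing oligodendrocytes, and the carbonic anhydrase Car2 had −2.40 and −1.71. For these 3 genes all 9 gliomas lay below all forebrains.

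Of 26 astrocyte genes, 1 was higher and 4 were lower (median log2 difference −0.48). The glycine and serine transporter Slc7a10, the claudin Cldn10 and the connexin Gjb6 had log2 differences of −1.84, −2.36 and −2.46, and the gene called higher was the receptor Gpr37l1, at 0.90 ± 0.25 (limma adjusted p = 0.00551). The fourth gene called lower was the glutamate transporter Slc1a2, whose call at −0.89 was lost when only the 20 Z2 arrays were fitted and without any of several single arrays.

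Of 28 stem cell and radial glia genes, 12 were higher and 1 lower (median log2 difference 0.63). Fabp7, the brain lipid-binding protein of radial glia, ranged from 11.44 to 12.59 (median 12.28) in p53 gliomas, with 11.60 in glioma 1, against 10.49, 9.97, 10.23 and 9.66 in forebrains. Here glioma 1 lay with the other gliomas, and the log2 difference was 2.09 ± 0.20 (limma adjusted p = 1.18e-07). Sox4, the intermediate filament gene Vim and Sox2 had log2 differences of 2.48, 1.99 and 0.94, again with no overlap. The gene called lower was Id4, at −1.30 ± 0.52 (limma adjusted p = 0.0468), a call lost in most fits that left out an array.

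Neuroblast and immature neuron genes had 2 of 20 higher and 8 lower (median log2 difference −0.99). The 2 higher were Igfbpl1 and Sox11, with log2 differences of 1.63 and 1.35. The proneural factor Neurog2 and the RNA-binding protein Elavl2 had −1.34 ± 0.26 and −1.61 ± 0.37. The mean of the list relative to forebrain was 0.73 in glioma 1 and between −1.43 and −0.61 in the other 8.

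Genes that respond to MAPK signalling had 7 of 18 higher and 1 lower (median log2 difference 0.78). Spry1, a feedback inhibitor, ranged from 6.65 in glioma 1 to 10.99 (median 9.43) in p53 gliomas, against 6.66, 6.38, 6.73 and 6.92 in forebrains, a log2 difference of 2.57 ± 0.50 (limma adjusted p = 0.000371). Gliomas 2 to 9 lay above all forebrains and glioma 1 among them. Etv4, an ETS factor, had 2.09, and Epha4, an ephrin receptor, was the gene called lower, at −1.51 ± 0.40 (limma adjusted p = 0.00448).

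Most measured genes of synapses, ion channels and axons were lower. Of 29 synaptic vesicle genes 28 were lower (median log2 difference −1.51), and Snap25, at −0.36, was the exception. The counts were 20 of 28 for glutamate receptors and the postsynaptic density (median −1.21), 18 of 26 for GABA receptors and interneurons (median −1.82), 21 of 31 for potassium channels (median −1.33), 21 of 24 for sodium, calcium and HCN channels (median −1.48) and 21 of 29 for axon and cytoskeleton (median −1.20). None of these 6 lists held a gene called higher. In bulk tissue, fewer cells of a type and less RNA per cell cannot be told apart.

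Dlg4, the postsynaptic scaffold PSD-95, ranged from 4.68 to 6.84 (median 5.21) in p53 gliomas, against 6.74, 7.37, 6.72 and 7.13 in forebrains, a log2 difference of −1.67 ± 0.28 (limma adjusted p = 7.69e-05), or −1.86 without glioma 1. The highest glioma was glioma 1, and gliomas 2 to 9 ended at 5.44, below every forebrain. Grin1, the obligatory NMDA receptor subunit, the scaffold Dlg3 and the spine protein Ppp1r9b had −1.95, −1.30 and −1.36. Kcna2, an axonal potassium channel, ranged from 3.11 to 4.74 (median 3.50), against 4.76, 5.28, 5.62 and 4.92, with no overlap and a log2 difference of −1.50 ± 0.23 (limma adjusted p = 3.53e-05). Kcnj9 and Kcnj3, which form G-protein-gated channels, and Kcnip2, a channel-interacting protein, had −1.48, −2.02 and −2.36. Among other channel genes, Cacnb2, Cacna1b, Cacng2 and the pacemaker channel Hcn2 had −1.78, −1.26, −2.24 and −1.31.

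Syngr3, a vesicle protein, Doc2b, a calcium sensor, and the small GTPase Rab3c had log2 differences of −1.72, −2.29 and −2.19. Slc32a1, the vesicular GABA transporter, ranged from 4.65 to 7.65 (median 6.33) in p53 gliomas, against 7.66, 7.73, 8.07 and 7.66 in forebrains, a log2 difference of −1.65 ± 0.37 (limma adjusted p = 0.00111). All gliomas lay below all forebrains, glioma 1 only just. Cort, the interneuron peptide cortistatin, and the receptor subunits Gabra2 and Gabbr1 had −1.85, −2.50 and −1.19. In axons, Cntnap1, which forms the paranodal junction, the spectrin Sptbn4 and the microtubule proteins Map1a and Map1b had −2.01, −1.80, −1.24 and −1.32.

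In the regional neuronal lists 10 of 27 neuropeptide genes (median log2 difference −1.64), 9 of 23 transcription factors of cortical layers (median −1.06) and 10 of 20 genes of striatal medium spiny neurons (median −1.40) were lower. The other members were not called. Bcl11b, also called Ctip2, ranged from 6.96 to 10.11 (median 8.02) in p53 gliomas, against 9.77, 10.26, 9.21 and 9.86 in forebrains, a log2 difference of −1.48 ± 0.45 (limma adjusted p = 0.0105). Glioma 1 held the highest glioma value, within the forebrains. Nr4a2, the striatal adenylyl cyclase Adcy5, the G-protein subunit Gnal and the peptide gene Grp had −1.28, −0.79, −1.65 and −2.59. Of 19 immediate early genes, which neurons and stressed tissue switch on within minutes, 3 were higher and 2 lower (median −0.14). Atf3 was the one with no overlap, at 2.61 ± 0.66 (limma adjusted p = 0.00289), and the calls of Ier2 and Jun as higher and of Homer1 and Arc as lower were each lost in some fits with fewer arrays.

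All 33 interferon-response genes were higher in p53 gliomas, with a median log2 difference of 3.07. Usp18, which removes ISG15 and limits interferon signalling, ranged from 7.95 in glioma 1 to 11.37 (median 10.92) in p53 gliomas, against 6.10, 4.94, 5.34 and 5.27 in forebrains. No glioma overlapped a forebrain, and the log2 difference was 5.19 ± 0.54 (limma adjusted p = 2.54e-07). Oasl2, an oligoadenylate synthetase-like protein, ranged from 8.11 in glioma 1 to 11.41 (median 10.99), against 6.32, 5.64, 5.90 and 5.59, a log2 difference of 4.79 ± 0.58. Mx1, an antiviral GTPase, and Irf9, the DNA-binding part of the ISGF3 complex, had 3.23 and 2.69. Glioma 1 lay above all forebrains in 30 of the 33 genes. Its list mean relative to forebrain was 1.03, where the other gliomas had 2.92 to 3.89.

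The promoters of 3 interferon-response genes are shown because they carry the motif that was searched, the core of the interferon-stimulated response element: 2 copies of GAAA with any 2 bases between them, on either strand and in capitals below (TTTC on the other strand), running together where matches overlap. The windows are of the same kind and source. Gbp3, a guanylate-binding protein, lies on the plus strand at chr3:142559794-142560093. Rsad2, the antiviral protein viperin, lies on the minus strand at chr12:26456403-26456702, and Irgm1, an immunity-related GTPase, on the minus strand at chr11:48871371-48871670.
Gbp3: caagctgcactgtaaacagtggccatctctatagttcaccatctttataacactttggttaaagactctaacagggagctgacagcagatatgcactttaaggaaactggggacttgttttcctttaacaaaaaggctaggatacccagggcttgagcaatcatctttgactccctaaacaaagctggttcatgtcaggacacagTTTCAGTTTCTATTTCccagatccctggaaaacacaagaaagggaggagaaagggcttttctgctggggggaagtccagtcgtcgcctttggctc
Rsad2: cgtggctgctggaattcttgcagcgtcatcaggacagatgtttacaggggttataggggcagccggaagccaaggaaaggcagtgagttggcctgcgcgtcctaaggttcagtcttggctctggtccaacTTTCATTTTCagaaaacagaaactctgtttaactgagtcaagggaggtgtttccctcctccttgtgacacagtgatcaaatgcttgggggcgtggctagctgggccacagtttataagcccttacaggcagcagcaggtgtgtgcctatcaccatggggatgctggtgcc
Irgm1: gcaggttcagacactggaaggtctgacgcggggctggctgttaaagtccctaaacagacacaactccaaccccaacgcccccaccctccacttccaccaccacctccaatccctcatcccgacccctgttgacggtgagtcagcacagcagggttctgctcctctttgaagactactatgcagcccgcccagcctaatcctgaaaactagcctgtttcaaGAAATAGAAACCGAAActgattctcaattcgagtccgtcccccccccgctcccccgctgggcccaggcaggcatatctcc

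Of the 33 genes, 23 matched 28 windows. The motif was in 14 of these windows, in 13 of the 23 genes (56.5%), against 3.99% of all 27025 genes in the table and 3 of the 46 mitotic genes (6.52%). The cell cycle homology motif was in 17.9% of the interferon windows and the CCAAT box in 35.7%, near their shares of all windows. A match describes these letters in this window and does not show that a factor binds there.

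Genes of MHC class I presentation had 9 of 12 higher and none lower (median log2 difference 0.79). H2-K1, a class I heavy chain, ranged from 7.78 in glioma 1 to 11.02 (median 10.23) in p53 gliomas, against 6.76, 6.69, 6.95 and 7.16 in forebrains, with no overlap and a log2 difference of 3.23 ± 0.42 (limma adjusted p = 4.4e-06). H2-D1 had 2.59, and these closely related genes may not be fully separable by their probes. Psmb8, an immunoproteasome subunit, and Erap1, a peptide-trimming protease, had 3.56 and 1.58. For MHC class II presentation 5 of 13 were higher and none lower (median 0.99), with the co-stimulator Cd86 at 1.78, the class II chain H2-Ab1 at 1.76, and H2-DMb1 and H2-DMb2, which load class II peptides, at 1.07 and 0.99.

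Of 32 genes of tumour-associated macrophages and phagocytes, 25 were higher and none lower (median log2 difference 2.15). The counts without glioma 1 were 27 and 1. Fcgr4, an Fc receptor, ranged from 6.51 in glioma 1 to 10.23 (median 9.35) in p53 gliomas, against 5.10, 5.43, 5.21 and 4.98 in forebrains, a log2 difference of 3.94 ± 0.46 (limma adjusted p = 1.22e-06). Itgax, which encodes CD11c, the lectin Lgals3 and Ms4a6c had 4.16, 4.17 and 3.28. Homeostatic microglia genes had 5 of 18 higher and 1 lower (median 0.47). The pan-microglial gene Aif1 was at 1.45 ± 0.30, P2ry6, Olfml3 and Fcrls were at 1.51, 1.55 and 1.40, and Slc2a5, a fructose transporter, was lower at −1.05 ± 0.30 (limma adjusted p = 0.00808).

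Of 25 chemokine genes 20 were higher and 2 lower (median log2 difference 2.03). Cxcl10 ranged from 7.06 in glioma 1 to 11.44 (median 10.55) in p53 gliomas, against 5.09, 3.64, 4.10 and 4.95 in forebrains, a log2 difference of 5.85 ± 0.88 (limma adjusted p = 2.51e-05). Ccl12 and Ccl2, which attract monocytes, and Cxcl16 had 4.27, 3.92 and 1.94, all with no overlap. The 2 lower genes are made by normal brain cells: Cx3cl1, the neuronal ligand of microglia, at −1.87 ± 0.43, and Cxcl12 at −1.94 ± 0.43. Another probe set of Cxcl12 was called at −1.99, and a further one, at −0.22, was not called. Complement had 9 of 16 higher and 1 lower (median 1.28), with C3ar1 at 2.45, Itgb2 at 2.14, C1qa at 1.77 and C1qc at 1.62, and the decay-accelerating factor Cd55 lower at −1.32.

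Few lymphocyte genes were called. Of 24 T and NK cell genes, none was higher and only Cd4 was lower, at −0.36 ± 0.14 (limma adjusted p = 0.0464), a call lost when only the 13 or 20 arrays were fitted. The list median was −0.01, or 0.02 after quantile normalization. Of 11 B and plasma cell genes only Sdc1 was called, at 3.11 ± 0.48 (limma adjusted p = 3.38e-05), a syndecan that other cells make too. Of 15 neutrophil and acute phase genes, 5 were higher and 3 lower (median 0.41). The iron-binding protein Lcn2 ranged from 6.72 to 12.84 (median 10.14) in p53 gliomas, against 3.97, 8.17, 5.14 and 4.18 in forebrains, a log2 difference of 5.08 ± 0.83 (limma adjusted p = 5.65e-05). Forebrain 2 was high here and lay above glioma 1. It also read 9.47 for the granule gene Ngp, where the other forebrains had 4.44, 5.15 and 4.45 and the gliomas 3.38 to 3.95, and the calls of Camp and Ltf as lower were lost without forebrain 2.

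Of 25 endothelial genes 5 were higher and 3 lower (median log2 difference 0.27), where 17.7% and 20.6% of all genes were, so the list did not stand out by its counts. Of 18 blood-brain barrier genes 2 were higher and 7 lower (median −0.47). Angpt2, which destabilises vessels, ranged from 4.94 in glioma 1 to 10.46 (median 8.41) in p53 gliomas, against 5.18, 4.89, 6.02 and 5.11 in forebrains, a log2 difference of 2.71 ± 0.64 (limma adjusted p = 0.00192). Gliomas 2 to 9 lay above all forebrains. Esm1, a tip-cell gene, Aplnr and Vwf had 2.83, 1.74 and 1.34, and the angiopoietin receptor Tek and the arterial factor Sox17 were lower at −1.14 and −0.90. Abcb1a, the P-glycoprotein efflux pump of the barrier, ranged from 6.06 to 8.17 (median 6.85), against 8.21, 8.21, 8.53 and 8.43, with no overlap and a log2 difference of −1.26 ± 0.33 (limma adjusted p = 0.00372). Spock2 and the thiamine transporter Slc19a3 had −1.40 and −0.75, while the amino acid transporter Slc7a5 was higher at 1.28 and the efflux pump Abcg2 at 0.57.

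Pericyte and smooth muscle genes had 1 of 18 higher and 1 lower (median log2 difference 0.29), or 3 and 1 without glioma 1. The higher gene was Cspg4, and the smooth muscle myosin Myh11 was lower at −1.16 ± 0.26. Fibroblast and meningeal genes had 1 of 18 higher, Pdgfra, and 4 lower (median −0.10), or 2 and 4 without glioma 1. The share higher was under the 17.7% of all genes and the share lower near the 20.6%. This list thus did not stand out by its counts. Ogn, a small leucine-rich proteoglycan, ranged from 3.24 to 6.20 (median 4.72) in p53 gliomas, against 8.39, 6.60, 7.40 and 6.86 in forebrains, a log2 difference of −2.64 ± 0.40 (limma adjusted p = 2.96e-05). The groups did not overlap, and the transporters Slc22a6 and Slc6a13 had −2.06 and −1.75.

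Extracellular matrix genes were mostly higher. Of 36 collagen and basement membrane genes 21 were higher and 1 lower (median log2 difference 1.57), and 24 and 1 without glioma 1. Col16a1 ranged from 6.35 in glioma 1 to 10.78 (median 9.56) in p53 gliomas, against 5.55, 5.12, 6.60 and 5.56 in forebrains, a log2 difference of 3.56 ± 0.50 (limma adjusted p = 9.82e-06). Glioma 1 lay among the forebrains and the other 8 gliomas above them. Col18a1, the source of endostatin, Col27a1 and the lysyl hydroxylase Plod2 had 3.43, 2.11 and 2.18. Lecticans, tenascins and link proteins had 13 of 25 higher and 6 lower (median 0.96), with the hyaluronan receptor Cd44 at 3.18 and the hyaluronan synthase Has3 lower at −0.51. Proteases and their inhibitors had 16 of 26 higher and 1 lower (median 1.29), with the inhibitor Timp1 at 3.79, the sheddases Adam12 and Adam17 at 2.81 and 1.26, and Adamts1 at 2.57.

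The mesenchymal glioma list had 23 of 28 higher and none lower (median log2 difference 1.53), or 24 without glioma 1. Vim ranged from 10.89 in glioma 1 to 12.49 (median 12.26) in p53 gliomas, against 10.50, 9.81, 10.25 and 10.04 in forebrains, with no overlap. Cebpd, a factor of the mesenchymal programme, and Socs3, a STAT3 feedback inhibitor, had 2.46 and 3.28. Of 17 S100 and annexin genes 10 were higher and 1 lower (median 0.86). S100a4 ranged from 8.13 in glioma 1 to 11.40 (median 10.29), against 6.74, 6.77, 6.71 and 7.09, a log2 difference of 3.21 ± 0.47 (limma adjusted p = 1.92e-05). S100a3, Anxa2 and S100a6 had 2.86, 2.03 and 1.52, and Anxa7 was lower at −0.80 ± 0.25 (limma adjusted p = 0.0118).

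Among metabolic lists, ribosome biogenesis had 16 of 27 higher and none lower (median log2 difference 0.51). Ddx21, a nucleolar helicase, ranged from 8.34 in glioma 1 to 9.84 (median 9.56) in p53 gliomas, against 8.10, 8.18, 8.10 and 8.24 in forebrains, a log2 difference of 1.23 ± 0.19 (limma adjusted p = 2.84e-05). Rrp1b, Wdr43 and nucleolin, Ncl, had 1.01, 0.72 and 0.55, all with no overlap. Oxidative phosphorylation had none of 34 higher and 11 lower (median −0.22), or 16 lower without glioma 1, with Uqcrc1 of complex III at −0.71 and Sdha, a subunit of succinate dehydrogenase, at −0.44. Hypoxia and glycolysis genes had 3 of 28 higher and 5 lower (median −0.21), or 5 and 5 without glioma 1. Hexokinase 2, Hk2, was higher at 1.69 ± 0.35 and hexokinase 1, Hk1, lower at −0.91 ± 0.21, and Hif1a was at 0.62. Sterol synthesis had 1 of 23 higher and 2 lower (median −0.08), or 1 and 4 without glioma 1.

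Of 32 mTOR and PI3K-AKT genes, 3 were higher, under the 17.7% of all genes, and 6 lower, near the 20.6%. The list thus did not stand out by its counts. Its median log2 difference of 0.04 became −0.03 when arrays were centred on their medians. Without glioma 1 the counts were 6 and 7. Eif4ebp1, the translational repressor that mTOR complex 1 phosphorylates, ranged from 7.48 in glioma 1 to 10.36 (median 9.88) in p53 gliomas, against 6.42, 7.33, 5.85 and 6.60 in forebrains, a log2 difference of 2.88 ± 0.39 (limma adjusted p = 6.26e-06). All gliomas lay above all forebrains. The regulatory subunit Pik3r1 was higher at 0.78. Pdpk1, the kinase PDK1 upstream of AKT, and Deptor, an inhibitory subunit of both mTOR complexes, were lower at −0.83 ± 0.16 and −1.68 ± 0.33, as were the phosphatase Inpp4b at −1.95 and the catalytic subunit Pik3cd at −0.47.

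Receptor tyrosine kinases and ligands had 8 of 41 higher and 10 lower (median log2 difference 0.10). These shares were near the 17.7% and 20.6% of all genes, so the list did not stand out by its counts. Besides Pdgfra, the growth factors Igf1 and Egf were higher at 1.31 and 0.65, a second Igf1 probe set being at 0.34 and not called, while Fgf9, Nrg3, Fgf12 and the receptor Fgfr2 were lower at −2.30, −1.51, −1.31 and −1.34. Notch, SHH and WNT genes had 9 of 42 higher, near the share of all genes, and 2 lower, under that share (median 0.22). Notch1 ranged from 8.27 in glioma 1 to 10.74 (median 10.34) in p53 gliomas, against 8.06, 7.99, 8.40 and 8.18 in forebrains, a log2 difference of 1.91 ± 0.28 (limma adjusted p = 1.92e-05). Its ligand gene Dll1, the WNT effector Tcf7l1 and the WNT receptor Fzd1 had 1.48, 1.27 and 1.07, and the ligand gene Jag2 was lower at −0.79.

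Chromatin genes had 15 of 33 higher and 6 lower (median log2 difference 0.43). Ezh2, the methyltransferase of Polycomb complex PRC2 in dividing cells, ranged from 7.43 in glioma 1 to 11.14 (median 10.24) in p53 gliomas, against 6.18, 6.54, 6.60 and 6.69 in forebrains, a log2 difference of 3.49 ± 0.47 (limma adjusted p = 6.31e-06). Ezh1, its counterpart in resting cells, ranged from 7.85 to 9.69 (median 8.63), against 9.69, 9.74, 9.77 and 9.88, a log2 difference of −1.13 ± 0.23 (limma adjusted p = 0.000532). Gliomas 2 to 9 were above the forebrains for Ezh2 and below them for Ezh1. The chromatin protein Hmgb2, the histone chaperone Asf1b and the helicase Hells had 4.30, 3.83 and 3.04, and Actl6b, the neuronal subunit of the BAF complex, and Hdac11 were lower at −2.24 and −2.07.

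Markers of neighbouring tissue differed between forebrains. Of 17 choroid plexus and ependyma genes 9 were lower and 1, Igfbp2, was higher (median log2 difference −1.57), and the Igfbp2 call was lost with only the 13 arrays or without forebrain 2. Clic6, a choroid plexus channel, ranged from 3.79 to 7.49 (median 4.79) in p53 gliomas, against 7.93, 5.77, 8.84 and 8.58 in forebrains, a log2 difference of −2.56 ± 0.64 (limma adjusted p = 0.0027). Forebrain 2 lay within the gliomas, and its list mean relative to all forebrains was −1.38. The prolactin receptor Prlr and the ciliary genes Spag6l and Rsph1 had −1.81, −1.94 and −0.91. Of 24 cerebellar genes none was higher and 9 were lower (median −0.59), among them Gdf10 at −2.17 ± 0.51. Of 6 erythrocyte genes 1 was lower and none higher.

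**Figure D3:**
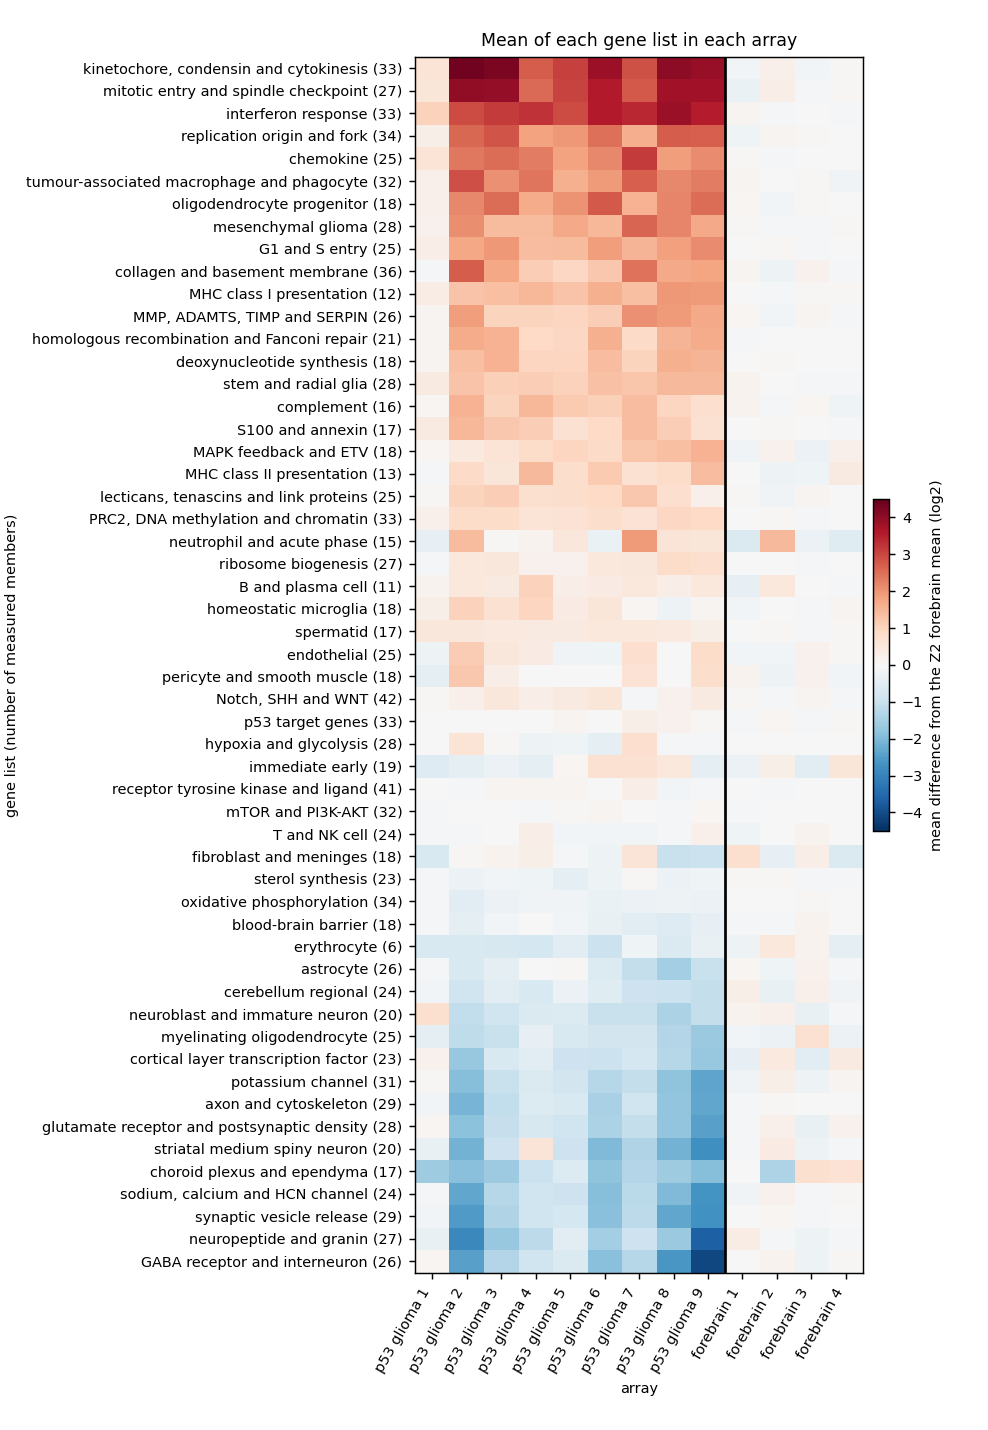
Mean over the measured members of each list in each array, minus the mean of the 4 Z2 forebrains (log2, colour scale; red above and blue below forebrain), with p53 gliomas 1 to 9 left of the black line and forebrains 1 to 4 right of it. The column of glioma 1 is pale for most lists, with 1.03 for the interferon response, 0.73 for neuroblast and immature neuron genes and −1.60 for choroid plexus and ependyma genes.

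Among p53 gliomas, glioma 1 stood apart, as the heat map of list means by array shows. Among the 3528 genes that were higher without it, glioma 1 lay above all forebrains in 1103 (31.3%), against 16.7% of all genes. Among the 4071 that were lower, it lay below all forebrains in 1142 (28.1%), against 19.6%. Its median change was 7.94% of that of the other gliomas for the higher genes and 9.43% for the lower ones. The share differed between lists. The mean of the interferon list reached 30.9% of that of the others, the S100 and annexin list 37.7%, the stem and radial glia list 32.6%, the chemokine list 26.8%, the oligodendrocyte progenitor list 10.6%, the macrophage list 10.4% and the synaptic vesicle list 7.08%. In a few lists glioma 1 was nearer the others or beyond them, with 45.0% for myelinating oligodendrocyte, 61.7% for homeostatic microglia, 109% for choroid plexus and ependyma (a mean of −1.60), 113% for erythrocyte (−0.68) and 120% for spermatid genes (0.51). The spermatid mean rests on Prm1, which in glioma 1 was 8.69 above the forebrain mean and lower than in every other glioma. The other spermatid genes differed from their forebrain means by −0.64 to 0.37 in glioma 1. In other lists, such as fibroblast and meninges at −0.68, the mean of the other gliomas was near 0 or opposite in sign, and the ratio has no meaning. The label of this array was kept as given, and whether it held less tumour tissue was not tested.

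The genes in which glioma 1 lay farthest above all forebrains included Prm1, Clca3a1, Foxd3, Cxcl10, Cxcl13 and Usp18. The B-cell chemokine gene Cxcl13 ranged from 6.34 to 12.35 (median 11.29) in p53 gliomas, with 8.65 in glioma 1, against 5.46, 4.47, 6.79 and 4.84 in forebrains, a log2 difference of 5.12 ± 0.93 (limma adjusted p = 0.000178). One of the other gliomas lay among the forebrains. Foxd3, a neural crest factor, ranged from 4.73 to 9.61 (median 5.74), with 5.62 in glioma 1, against 3.37, 3.39, 3.21 and 3.44, a log2 difference of 2.85 ± 0.76 (limma adjusted p = 0.00434). The genes in which it lay farthest below all forebrains included the thyroxine carrier Ttr, the orexin gene Hcrt, the dopamine receptor gene Drd2 and Col8a2. Hcrt, expressed in the lateral hypothalamus, ranged from 3.59 to 5.53 (median 4.0), with 4.09 in glioma 1, against 11.54, 7.22, 11.03 and 5.33 in forebrains. The forebrains themselves ranged widely for this gene.

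**Figure D4:**
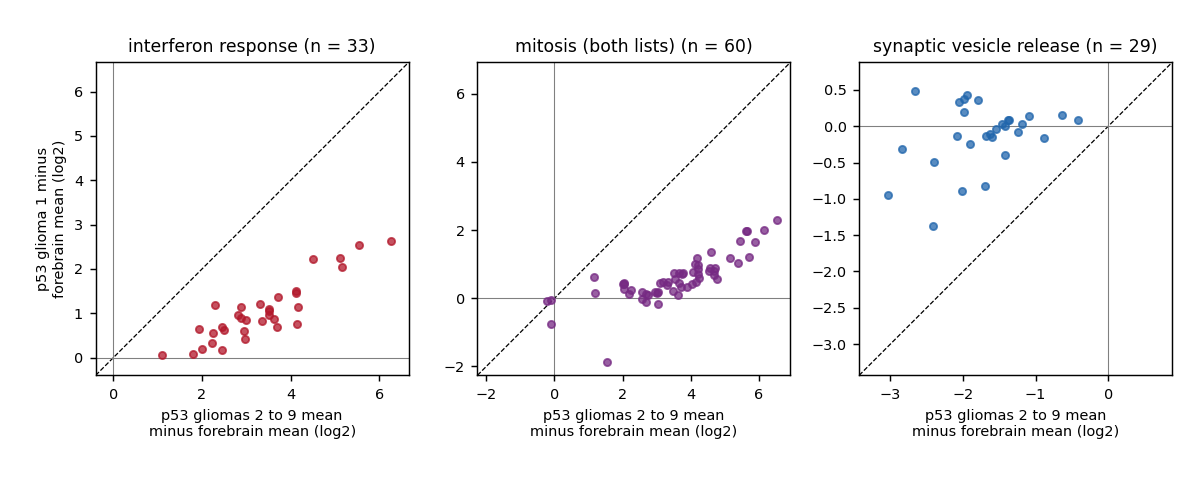
For the genes of 3 sets, the log2 value of p53 glioma 1 minus the forebrain mean (vertical axis) against the mean of p53 gliomas 2 to 9 minus the forebrain mean (horizontal axis), 1 point per gene, with a dashed line of equal change. Most interferon and mitotic genes lie below the line and above 0, and the synaptic vesicle genes lie above the line, around or below 0 in glioma 1 where the other gliomas are lower.

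Few genes were called between the p53 gliomas and the p53 Nf1KO gliomas, which share the Cre and the floxed p53 alleles. Of 17297 genes 25 were called in limma (0.145%), 12 higher and 13 lower in p53 gliomas, and 2170 had an unadjusted p under 0.05. Without glioma 1 the count was 454 (2.62%), with 244 higher and 210 lower. With glioma 1 kept, the count of 25 moved by more than 1.5 times when other single arrays were left out. It became 9 without p53 glioma 2, 14 without glioma 3, 46 without glioma 5, 12 without glioma 6 and 13 without glioma 9. It was 14, 12 and 52 without p53 Nf1KO glioma 1, 2 and 4. Nf1 ranged from 5.92 to 6.83 in p53 gliomas, against 5.26, 5.61, 5.62 and 5.70 in p53 Nf1KO gliomas, with no overlap and a log2 difference of 0.78 ± 0.16 (limma adjusted p = 0.0355). The Nf1 call was lost with only the 13 arrays of these 2 groups, with only the 20 Z2 arrays, under the filter on low values, without p53 glioma 2, 6 or 9, and without p53 Nf1KO glioma 1 or 2. That call was also lost with the replicate number as a block.

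Hoxd9, a homeobox gene that patterns the trunk and limbs, ranged from 3.16 to 4.78 (median 3.78) in p53 gliomas, against 10.82, 9.91, 6.38 and 9.86 in p53 Nf1KO gliomas, a log2 difference of −5.49 ± 0.55 (limma adjusted p = 1.63e-06). Forebrains read 3.54 to 3.79, and glioma 9, at 4.78, was the highest p53 glioma. Its neighbour Hoxd8 ranged from 2.65 to 3.89 (median 2.84), against 8.54, 6.72, 4.37 and 7.73, a log2 difference of −3.90 ± 0.76 (limma adjusted p = 0.0301). The Hoxd8 call was lost without p53 glioma 2, without p53 Nf1KO glioma 1, 2 or 4, and with the replicate number as a block. Other genes of the cluster, such as Hoxd10 at −0.53 and Hoxd4 at −0.29, were not called. The antimicrobial peptide gene Defb11, Cltrn, which encodes collectrin, and the RNA polymerase III subunit gene Polr3gl had log2 differences of −2.18, −1.97 and −1.76, and each of these calls was lost in at least 1 smaller fit.

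On the other side, Fadd, the adaptor of death receptors, ranged from 7.10 to 10.71 (median 9.95) in p53 gliomas, against 7.13, 6.50, 7.75 and 7.15 in p53 Nf1KO gliomas, a log2 difference of 2.19 ± 0.45 (limma adjusted p = 0.0441). Gliomas 1 and 8 overlapped the p53 Nf1KO gliomas. Ccnd1 ranged from 9.76 to 12.14, against 10.10, 9.38, 9.80 and 10.60, a log2 difference of 1.48 ± 0.29 (limma adjusted p = 0.0355). Both genes, with Cttn at 1.34 and Ppfia1 at 1.71, lie close together on chromosome 7, which was noticed after their values were seen. Il1r2, a decoy receptor for interleukin 1, and Csprs had 1.92 and 2.14. The calls of all 12 higher genes were lost when only the 13 arrays of these 2 groups or only the 20 Z2 arrays were fitted. The same 12 calls were lost with the replicate number as a block. Under the filter on low values 2 of the 12, one of them Cttn, kept their call and 2 were not tested. Fadd, Ccnd1, Ppfia1, Il1r2 and Csprs were among the 8 that lost theirs.

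**Figure D5:**
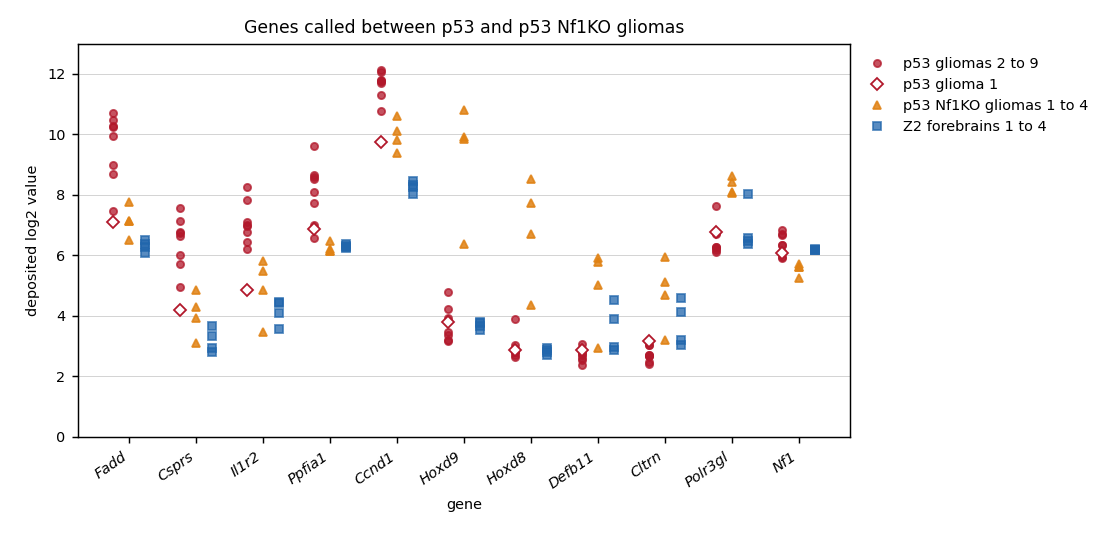
Deposited log2 value (vertical axis) of the 5 called genes that were most increased and the 5 most decreased in p53 relative to p53 Nf1KO gliomas, and of Nf1, 1 point per array. Filled circles are p53 gliomas 2 to 9, open diamonds p53 glioma 1, triangles the 4 p53 Nf1KO gliomas and squares the 4 Z2 forebrains. Hoxd9 separates the p53 Nf1KO gliomas, all at 6.38 or more, from every p53 glioma.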

How the data were processed

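The authors deposited normalized log2 values of total RNA hybridised to Affymetrix mouse arrays, per the labels, for 18328 probe sets of a custom definition. The 2 deposited tables were equal in every cell. The method of summarising and normalizing the intensities is not given in the sources. Gene identifiers were matched to RefSeq names of assembly GRCm38.p6: 17226 probe sets matched 1 gene, 785 several and 317 none. Genes with several probe sets were represented by the one with the highest average in the 32 arrays, leaving 17297 features, with no filter on low values. Arrays have no counting depth, and their number limits the precision.

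A limma 3.58.1 model (R 4.3.3) with 6 group means was fitted to all 32 arrays, with eBayes and Benjamini-Hochberg adjustment over all features. Tests are two-sided. It was repeated without p53 glioma 1 and tested on simulated data. Tables and figures used python 3.11.15, pandas 2.3.3, numpy 2.4.6 and matplotlib 3.10.9. Besides leaving out each array, 12 alternatives were run: the 13 arrays of the pair, the 20 arrays of set Z2, median-centred arrays, quantile normalization within sets, a filter on the lowest 25% of values, every probe set on its own, the median of a gene's probe sets, eBayes with trend and robust, array weights, an adjusted p under 0.01, the series value table, and the replicate number as a block.

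The p53 gliomas and forebrains share the numbers 1 to 4. Deviations from the group means correlated at −0.086, −0.093, −0.045 and 0.002 between same-numbered arrays, so the numbers were not taken as pairs.

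Genes were named by rule: the 12 largest differences in each direction among genes called with and without glioma 1 whose gliomas 2 to 9 did not overlap the forebrains; up to 4 called members of a list in its main direction and 3 in the other; Trp53, Nf1 and Rictor; the 8 genes in each direction in which glioma 1 lay farthest beyond all forebrains; and the 5 in each direction against p53 Nf1KO gliomas. A few genes that met these rules are not reported here. The members, the 54 lists and these rules were chosen with earlier results of these data known.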

Additional observations from a re-analysis of the deposited data

Results flagged for a closer look

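An array was singled out where its gap to the nearest other array of its group exceeded Dixon's 95% critical value. This held for 89 of 650 groups of values, where chance gives about 1 in 20, and 54 of the 89 were values of p53 glioma 1. Many of these genes were chosen by how gliomas 2 to 9 or glioma 1 lay to the forebrains, so the count is a description and no test of that array.

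In p53 glioma 1, cell division genes were far below the other 8 gliomas on the log2 scale, with Ccnb1 at 6.21, Pbk 7.04, Pclaf 5.25, Esco2 3.88, Cdk1 6.70, Nusap1 6.26, Ect2 6.26, Top2a 5.20, Ccna2 6.89 and Spc25 6.68. The same held for Cdkn2a at 4.29, E2f7 4.25, Myc 5.73, Pole 4.76, Cdt1 7.02, Tk1 5.08, Hmgb2 7.66 and Asf1b 6.57. Lineage and signalling genes were also apart, with Vcan at 6.39, Olig2 8.93, Nkx2-2 7.77, Vim 10.89, Notch1 8.27 and Tcf7l1 4.85. Immune genes followed, with Cxcl10 at 7.06, Usp18 7.95, Mx1 5.51, Oasl2 8.11, H2-K1 7.78, H2-D1 9.54, Psmb8 7.40, Fcgr4 6.51, Ms4a6c 4.90, Ccl2 5.07 and Lcn2 6.72. So did the matrix genes Col18a1 at 5.82, Adam12 6.54 and Adam17 6.75, and Prm1 at 9.98. For the synaptic genes Dlg4 and Ppp1r9b glioma 1 was far above the others, at 6.84 and 6.40.

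The list means of glioma 1 relative to forebrain stood apart for 13 lists. They were 0.29 for G1 and S entry, 0.28 for replication, 0.12 for deoxynucleotide synthesis, 0.56 for mitotic entry and 0.61 for the kinetochore list. They were 0.23 for oligodendrocyte progenitor, 0.41 for stem and radial glia and 0.73 for neuroblast and immature neuron genes. They were 1.03 for the interferon response, 0.32 for MHC class I, 0.24 for tumour-associated macrophages, 0.21 for mesenchymal glioma and 0.23 for chromatin.

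Other p53 gliomas stood apart in few values. Glioma 4 read 8.23 for Isl1 and had a B and plasma cell list mean of 1.05, glioma 5 read 5.53 for Hcrt, glioma 6 read 7.62 for Polr3gl, and glioma 8 read 9.61 for Foxd3. Glioma 9 read 5.71 for Nr4a2, 12.10 for Fgf4 and 3.89 for Hoxd8, with a spermatid list mean of 0.27. That positive mean rests on Prm1, at 10.80 in this array.

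Among forebrains, forebrain 2 was high for the neutrophil granule genes Ngp at 9.47, Camp 8.82 and Ltf 6.80. It also stood apart for Pclaf at 3.57, Chek1 4.11, Grp 8.81, Fcrls 8.02, Cspg4 5.57, Ak7 6.27 and Col8a2 5.28, and by list means of 0.07 for deoxynucleotide synthesis and −0.05 for receptor tyrosine kinases. Forebrain 1 stood apart for E2f7 at 3.18, Cacng2 8.71 and Polr3gl 8.03, and by list means of 0.13 for the interferon response and −0.08 for mTOR and PI3K-AKT. Forebrain 3 did so for Slc32a1 at 8.07, Slc7a5 8.81, Hapln2 7.13, Tm7sf2 8.61, Fgfr2 8.73 and Spag6l 7.36, with a myelinating oligodendrocyte list mean of 0.67. Forebrain 4 did so for S100a4 at 7.09 and Hells 3.97.

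Between the 2 glioma models of set Z2, the difference itself was tested, as p53 gliomas minus p53 Nf1KO gliomas on the log2 scale. It passed in limma for Fadd at 2.19, Csprs 2.14, Il1r2 1.92, Ppfia1 1.71 and Ccnd1 1.48, and for Hoxd9 at −5.49, Hoxd8 −3.90, Defb11 −2.18, Cltrn −1.97 and Polr3gl −1.76.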

How the results depend on the processing

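Against forebrain, the 6618 calls became 4088 at an adjusted p under 0.01 and 1214 with a replicate block, of which 824 were at least 2-fold, against 2873. In set Z2 the numbers 5 to 9 occur only in p53 gliomas, so the block absorbs these arrays. The block fit thus compares only p53 gliomas 1 to 4, glioma 1 among them, with the forebrains. How much of the loss comes from this was not tested. The other 10 alternatives gave 5519 to 8528 calls, and leaving out 1 array gave 5383 to 7599, with 2600 to 3384 at least 2-fold. Centring arrays on their medians shifted the median of all genes to −0.11 and made 38.6% of the calls higher, against 46.2%. Of 259 named genes called against forebrain, 218 kept their call in every alternative but the block and the stricter threshold. Of the rest, 24 were lost with only the 13 arrays, 14 with only the 20 arrays, 34 without a forebrain, 14 without a glioma other than glioma 1 and none without glioma 1. The block lost 152 of the 259 and the stricter threshold 41. Rictor, uncalled in either, was at 0.01 with array weights, in place of −0.04, and between −0.12 and 0.03 when 1 array was left out, 0.03 being without forebrain 1.

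Against p53 Nf1KO gliomas, the 25 calls, 20 of them at least 2-fold, became 5 and 5 with only the 13 arrays and 2 and 2 with only the 20 arrays. They became 4 and 4 under the filter on low values, 77 and 55 with array weights, 2 and 2 at an adjusted p under 0.01, and 10 and 10 with a replicate block. The 10 calls under the block were mostly other genes. All 12 higher and 10 of the 13 lower genes lost their call there, and only 3 of the 25 kept it. The filter used the mean of p53 gliomas and forebrains only. It left 9 of the 13 lower and 2 of the 12 higher genes untested, among them Hoxd9, Hoxd8, Defb11 and Cltrn. Leaving out 1 array gave 9 to 454 calls, with 7 to 239 at least 2-fold. The number of arrays and their signal over background limit the precision of both comparisons.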

Other observations

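Some genes in which glioma 1 lay farthest beyond the forebrains had calls that were lost in some of the alternative fits. Fgf4, a fibroblast growth factor gene normally silent in adult brain, ranged from 3.59 to 12.10 (median 5.65) in p53 gliomas, with 7.68 in glioma 1, against 3.41, 3.52, 3.44 and 3.50 in forebrains. All gliomas lay above all forebrains, but the limma call (log2 difference 2.92 ± 0.81) was lost with only the 13 arrays. The collagenase gene Mmp13 had a log2 difference of 2.06 ± 0.65, with the same loss. Fgf4 lies on chromosome 7 between Fadd and Ccnd1, which were also called higher against forebrain, at 3.01 and 3.18. In the same stretch Fgf15 and LTO1 were also called higher, at 2.21 and 1.83, while Ano1 and Fgf3 were not called. This position was noticed after the values were seen.

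Among the lower genes, Ttr, the thyroxine carrier that choroid plexus secretes, ranged from 3.77 to 9.16 (median 6.62) in p53 gliomas, with 5.53 in glioma 1, against 11.39, 7.83, 12.97 and 13.10 in forebrains. Forebrain 2 lay within the gliomas for this gene too. The cilia-related genes Ccdc153 and Ak7 had log2 differences of −1.84 and −1.73, and these calls were lost without forebrain 4. The orexin receptor gene Hcrtr1 was at −1.91 and the striatal factor gene Isl1 at −2.78, and both calls were lost without forebrain 1.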
